A study of Mus musculus with 15 samples.

Results

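The Hox cluster genes encode homeodomain transcription factors and were read here as a family across 5 groups of mouse cells. Members were all genes whose symbol is Hox followed by a cluster letter from a to d and a paralogue number, with no use of measured values, and each gene was read from its brightest probe set by mean over the 15 arrays. This gave 33 of the 18193 genes measured, out of 39 Hox genes in the RefSeq annotation. The A cluster had 9 of its 11 genes, the B cluster 9 of 10, the C cluster 7 of 9 and the D cluster 8 of 9.

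Hox genes lie in 4 clusters in mammals, and their order along a cluster follows the order in which they are used along the body axis, with low paralogue numbers towards the head and high numbers towards the tail and the ends of the limbs. Their proteins bind DNA together with cofactors of the Pbx, Meis and Pknox families, Polycomb complexes keep the clusters silent where they are not used, Trithorax complexes keep them active, and retinoic acid induces genes at their head-side end. Adult stromal cells are known to keep a Hox pattern that reflects the body region they came from.

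Each group had 3 arrays, and total RNA of each sample (5 µg) was labelled for an Affymetrix array. MSC are mesenchymal stromal cells of the mouse, grown with 10% serum in DMEM of low glucose content. HD28 cells were made from MSC by 7 days with HGF (20 ng/ml), bFGF (10 ng/ml) and nicotinamide (0.61 g/L), followed by oncostatin M (20 ng/ml) and dexamethasone (1 µmol/L) with an insulin, transferrin and selenium premix. dHD28 cells were HD28 cells returned to the MSC medium. Hepatocyte samples were primary mouse hepatocytes cultured in DMEM/F12 with 10% serum. MLC were made from such hepatocytes in MSC medium with human TGF-β1 at 10 ng/ml up to day 7, 5 ng/ml up to day 14 and 1 ng/ml up to day 28, and then kept in MSC medium. The labels give no strain, age, sex or tissue for the MSC, no purity for the hepatocytes, and no time for the return of dHD28. Whether replicates were separate animals or cultures is not given there. The p-values below set differences between groups against the spread among these samples, and may not carry over to other animals or cultures.

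Several properties of the arrays touch the results. The table holds no detection calls, so background on an array was set at the 95th percentile of 83 probe sets for odorant, vomeronasal and taste receptors, which lay between 4.46 and 5.32 on the log2 scale. All 10 hepatocyte markers were above background on the 3 Hepatocyte arrays and on HD28 array 3, against 2 to 4 on every other array, and albumin stood at 13.80 on HD28 array 3, against 3.38 and 3.74 on the other HD28 arrays. The stromal markers averaged 4.81 to 5.82 on Hepatocyte arrays, against 9.51 to 9.81 on all others, HD28 array 3 included. Thy1, a defining stromal marker, lay near background throughout, between 3.75 and 5.91. Hepatocyte arrays also carried RNA of other liver cells, with 7 to 8 of 8 macrophage, 4 to 5 of 6 endothelial and 2 to 5 of 6 stellate markers above background, against 2 to 3, 1 to 2 and 1 to 2 on MSC arrays, and HD28 array 3 had 7 of the macrophage markers. The difference between 3′ and 5′ actin probe sets, a sign of RNA quality, was 0.66 to 1.24 on Hepatocyte arrays and 0.94 on HD28 array 3, against at most 0.44 on the others. Spiked-in control RNAs were high on 6 arrays (7.35 to 8.50) and low on 9 (4.70 to 5.49), and each group held arrays of both classes. In such bulk samples, fewer cells of a type and less RNA per cell cannot be told apart.

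The 33 genes fell into sets by detection of the probe set used for each. Above background on every array were 9 genes (Hoxa3, Hoxa5, Hoxa7, Hoxb2, Hoxb3, Hoxb4, Hoxc6, Hoxc9 and Hoxd9), with values between 5.05 and 7.90. Further probe sets of Hoxa3, Hoxa5, Hoxb3 and Hoxb4 were not above background on any Hepatocyte array. The sets used for Hoxa5 and Hoxc6 carry a suffix for sets that may match several transcripts. On no array above background were 13 genes (Hoxa2, Hoxa11, Hoxb1, Hoxb5, Hoxb7, Hoxb13 and, of the D cluster, Hoxd1, Hoxd3, Hoxd8, Hoxd10, Hoxd11, Hoxd12 and Hoxd13), which lay between 1.89 and 4.81. Another 9 genes (Hoxa4, Hoxa9, Hoxa10, Hoxb6, Hoxc4, Hoxc5, Hoxc8, Hoxc10 and Hoxc13) were above background on all 3 MSC arrays and on 0 Hepatocyte arrays. The remaining 2 were Hoxa13, above background on 1 dHD28 array and on 0 arrays of the other groups, and Hoxb9, above it on all dHD28, MLC and MSC arrays but on 1 HD28 and 1 Hepatocyte array.

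By group, 18 Hox genes were above background on all 3 arrays in dHD28, 15 in HD28, 18 in MLC, 9 in Hepatocyte and 19 in MSC, where the same rule held for 59.7%, 61.3%, 61.5%, 54.4% and 59.4% of all genes. The C cluster contributed 7 genes in dHD28, 6 in HD28, 7 in MLC, 2 in Hepatocyte and 7 in MSC. The D cluster contributed 1 gene in each group, and that gene was Hoxd9. A dim probe set shows only that its gene was not measured above background, since probe sets differ in how well they bind. In the moderated F test of limma across the 5 groups, 14 of the 33 Hox genes passed (adjusted p under 0.05), where 46.8% of all genes passed.

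**Figure D1:**
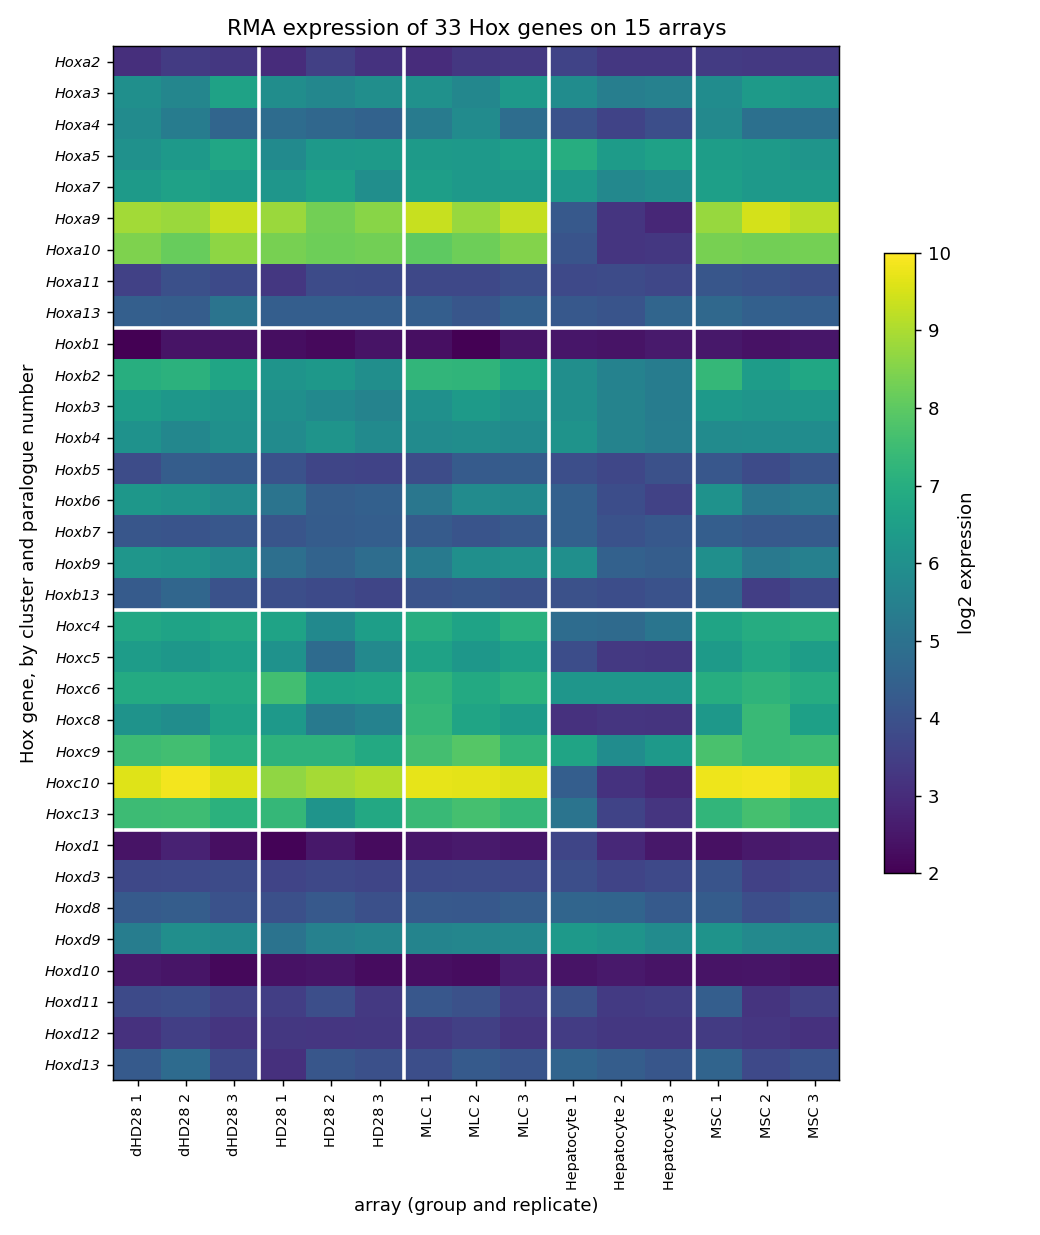
Log2 expression of the 33 Hox genes (rows, by cluster and paralogue number, white lines between clusters) on the 15 arrays (columns, white lines between groups). Hoxa9, Hoxa10 and most C cluster genes are dark on the 3 Hepatocyte arrays, where Hoxc10 averages 3.48 against 9.74 in MSC, while most D cluster rows stay dark throughout. Colours show where each gene differs between arrays, not which of 2 genes is more abundant.

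Hepatocytes were set against MSC to see how the starting cell types of the study differ. In Hepatocyte, 11 Hox genes fell and 0 rose (adjusted p under 0.05 by limma with Benjamini-Hochberg adjustment over all genes, and a fold of at least 2), where 18.3% of all genes fell and 11.8% rose (30.1% in all). The genes that fell were Hoxa4, Hoxa9 and Hoxa10 of the A cluster (3 of 9 measured), Hoxb2 and Hoxb6 of the B cluster (2 of 9), and Hoxc4, Hoxc5, Hoxc8, Hoxc9, Hoxc10 and Hoxc13 of the C cluster (6 of 7). None of the 8 D cluster genes passed, and 1 of them had an unadjusted p under 0.05 in the same limma fit. The median log2 change was -0.26 over the 33 genes and -3.02 over the C cluster, beside 0.04 over all genes. For 9 of the 11 the Hepatocyte arrays were not above background, so that their folds are given as bounds against the background level.

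Of the genes with high paralogue numbers, Hoxc10, a patterning gene of the lumbar region and hindlimb, read 4.40, 3.17 and 2.88 on the Hepatocyte arrays, against 9.79, 9.85 and 9.58 on the MSC arrays. The groups were far apart, and Hepatocyte array 1 was the highest of its group. Hoxc10 was at least 23.5-fold lower in Hepatocyte (means 3.48 ± 0.81 and 9.74 ± 0.14, SD, n = 3 each; fitted log2 change -6.26 ± 0.29 SE, limma adjusted p = 8.9e-09). Hoxa9, which acts in limb and axial patterning and in blood progenitors, read 4.23, 3.23 and 2.89 on the Hepatocyte arrays, against 8.78, 9.48 and 9.19 on the MSC arrays. Its bound was at least 15.5-fold lower (means 3.45 ± 0.70 and 9.15 ± 0.35; fitted log2 change -5.70 ± 0.31 SE, limma adjusted p = 2.3e-08). Hoxa10, which patterns the lumbar spine and the reproductive tract, read 4.06, 3.23 and 3.30 on the Hepatocyte arrays, against 8.35, 8.31 and 8.32 on the MSC arrays, where the spread was small. It was at least 8.78-fold lower (means 3.53 ± 0.46 and 8.32 ± 0.02; fitted log2 change -4.79 ± 0.21 SE, limma adjusted p = 5e-09). Hoxc13, known for its role in hair and nail formation, read 5.09, 3.60 and 3.24 on the Hepatocyte arrays, against 7.27, 7.65 and 7.28 on the MSC arrays. Its Hepatocyte values were again highest on array 1, and the bound was at least 4.63-fold lower (means 3.98 ± 0.98 and 7.40 ± 0.22; fitted log2 change -3.42 ± 0.39 SE, limma adjusted p = 9.8e-06).

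The middle of the C cluster fell as well. Hoxc8, a gene of thoracic patterning, read 3.13, 3.24 and 3.21 on the Hepatocyte arrays, against 6.25, 7.42 and 6.54 on the MSC arrays. MSC array 2 stood highest, and the difference from Hepatocyte was many times the spread (at least 2.92-fold lower, fitted log2 change -3.54 ± 0.33 SE, limma adjusted p = 1.9e-06; means 3.19 ± 0.06 and 6.73 ± 0.61). Hoxc5 read 3.90, 3.34 and 3.30 on the Hepatocyte arrays, against 6.36, 6.80 and 6.45 on the MSC arrays (at least 2.55-fold lower, fitted log2 change -3.02 ± 0.28 SE, limma adjusted p = 1.6e-06; means 3.51 ± 0.34 and 6.54 ± 0.23). Hoxc4, at the head-side end of this cluster, read 4.84, 4.76 and 5.11 on the Hepatocyte arrays, against 6.67, 6.97 and 7.04 on the MSC arrays (at least 3.26-fold lower, fitted log2 change -1.99 ± 0.21 SE, limma adjusted p = 5.2e-06; means 4.90 ± 0.18 and 6.89 ± 0.19). All 3 of these genes had groups without overlap. Hoxc9, above background in both groups, read 6.66, 5.90 and 6.34 on the Hepatocyte arrays, against 7.70, 7.42 and 7.48 on the MSC arrays, and fell 2.36-fold (log2 change -1.24 ± 0.22 SE, limma adjusted p = 0.00036). Its C cluster neighbour Hoxc6 lay just outside the call, since its log2 change of -0.85 ± 0.21 SE (limma adjusted p = 0.0045) is a 1.80-fold difference.

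In the B cluster, Hoxb2, a gene of hindbrain patterning, read 5.96, 5.54 and 5.36 on the Hepatocyte arrays, against 7.32, 6.44 and 6.76 on the MSC arrays. It fell 2.33-fold (log2 change -1.22 ± 0.24 SE, limma adjusted p = 0.00086), and without MSC array 1 its log2 change of -0.98 no longer met the fold limit. Hoxb6 read 4.46, 3.88 and 3.58 on the Hepatocyte arrays, against 6.08, 5.14 and 5.33 on the MSC arrays (at least 1.25-fold lower, fitted log2 change -1.54 ± 0.30 SE, limma adjusted p = 0.00079; means 3.98 ± 0.44 and 5.51 ± 0.49). Hoxa4 averaged 3.85 ± 0.22 in Hepatocyte and 5.22 ± 0.46 in MSC (at least 1.02-fold lower, fitted log2 change -1.38 ± 0.33 SE, limma adjusted p = 0.0034). Hoxb6 and Hoxa4 lay little above background in MSC, which makes their bounds small. Hoxb3 missed the fold limit, with a log2 change of -0.60 ± 0.18 SE (limma adjusted p = 0.014).

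By the probe set used, not every Hox gene above background was low in hepatocytes. Hoxd9 read 6.28, 6.14 and 5.86 on the Hepatocyte arrays, against 6.09, 5.78 and 5.69 on the MSC arrays, and the groups overlapped (log2 change 0.24 ± 0.19 SE, limma adjusted p = 0.35). Hoxa5, which acts in lung and gut development, averaged 6.66 ± 0.30 in Hepatocyte and 6.33 ± 0.15 in MSC (log2 change 0.32 ± 0.21 SE, limma adjusted p = 0.24). The suffix of this Hoxa5 probe set marks one that may match several transcripts. Its other probe set, without such a suffix, fell (log2 change -1.815, limma adjusted p = 3.3e-05 with probe sets tested singly), so Hoxa5 is not settled. Arrays without any overlap and lower in Hepatocyte were seen for 16 Hox genes, where 27.9% of all genes showed this, and arrays higher in Hepatocyte for 0, where 24.7% did.

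The hepatocyte comparison moves with the marker lists, with actin probe balance and with scaling. Their part in the fall of Hox genes was not tested. The 11 genes that fell had no overlap between Hepatocyte and MSC arrays, so their direction within a spike-in class was fixed beforehand. Their differences were -5.39 to -1.04 between the single arrays of the high class. Between 2 and 2 arrays of the low class they were -6.69 to -1.15. When arrays were centred on 7 housekeeping genes, of which 4 fell in Hepatocyte by themselves, the median over all genes became 0.98, and 7 Hox genes were lower and 7 higher in place of 11 and 0. Relative to the median of all genes, 25 of the 33 were lower under either scaling. This count could not move, since the centring shifts all genes of an array alike. The 7 that stayed lower were Hoxa9, Hoxa10, Hoxc4, Hoxc5, Hoxc8, Hoxc10 and Hoxc13.

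**Figure D2:**
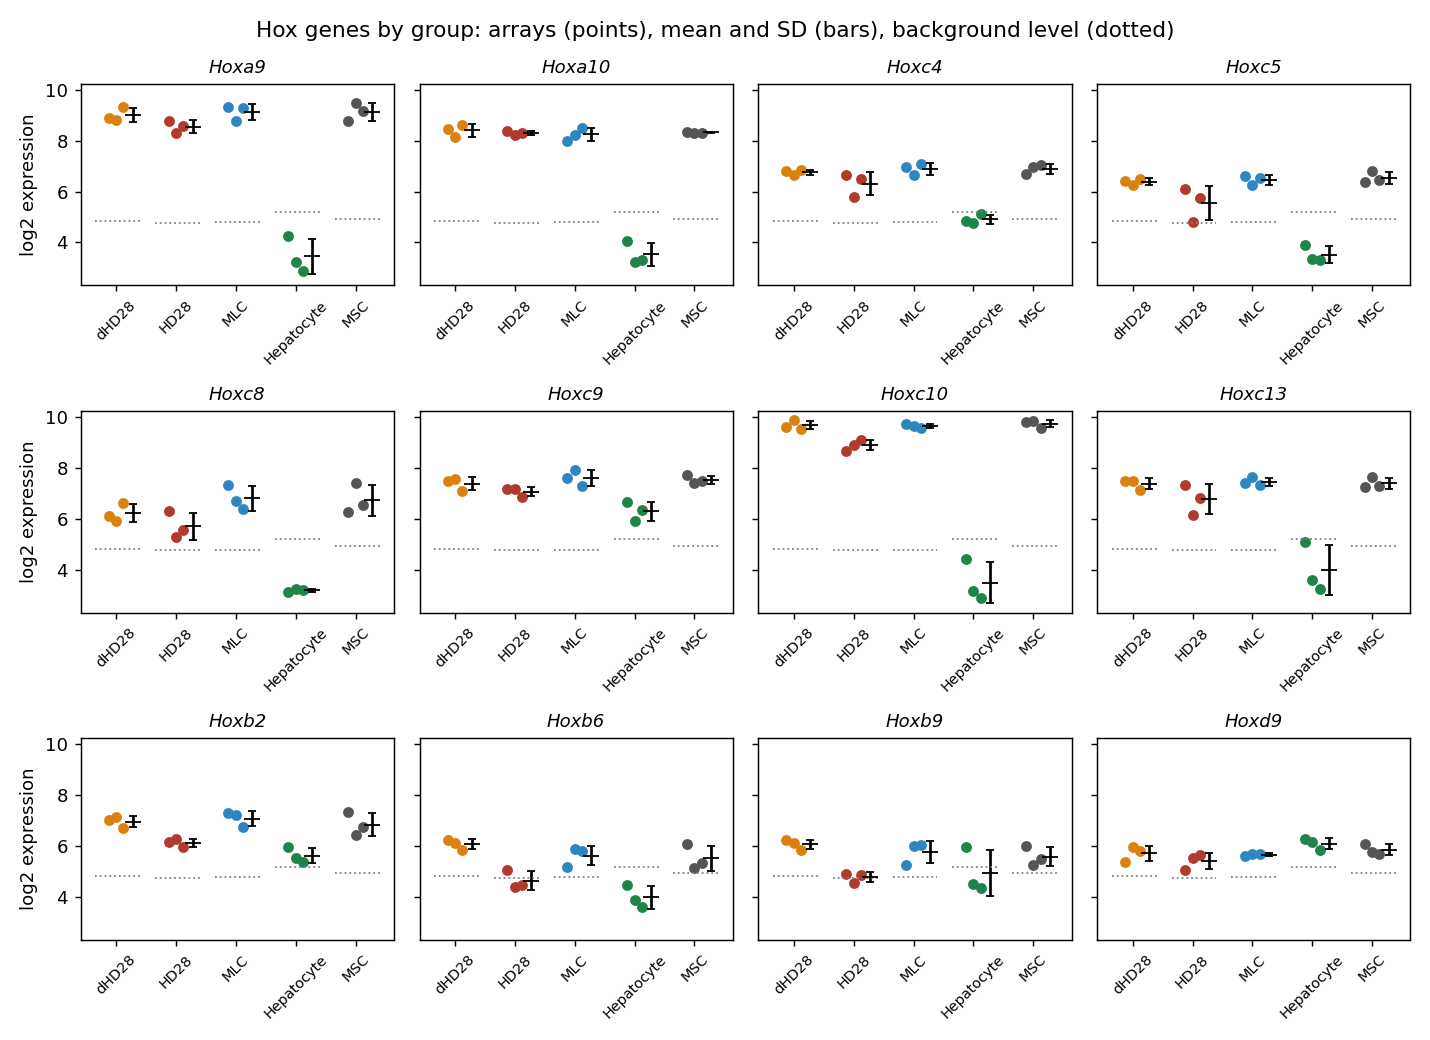
Log2 expression of single Hox genes by group (dHD28, HD28, MLC, Hepatocyte and MSC from left to right). Points are arrays, bars are the mean and SD of 3 arrays, and the dotted line is the background level. Hoxa9, Hoxa10 and Hoxc10 sit between 8.01 and 9.86 in all groups but Hepatocyte, where they sit between 2.88 and 4.40.

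The start regions of several members that fell, and of 1 that was not above background in any group, are shown to let their sequences be set beside the expression values, since the study's title concerns DNA methyltransferases, which act on CpG. DNA methylation itself was not analysed here. Windows of 300 bases (250 before and 50 after an annotated start, RefSeq, build GRCm38.p6) were found for 19 members, in 21 windows. Capitals mark CpG. Hoxa9 lies at chr6:52227321-52227620 (minus strand), Hoxa10 has a window at each of chr6:52234890-52235189 and chr6:52240805-52241104 (minus strand), Hoxc4 lies at chr15:103034145-103034444 (plus strand), and Hoxd10, which stayed at 2.16 to 2.63 on all 15 arrays, at chr2:74691641-74691940 (plus strand).
Hoxa9: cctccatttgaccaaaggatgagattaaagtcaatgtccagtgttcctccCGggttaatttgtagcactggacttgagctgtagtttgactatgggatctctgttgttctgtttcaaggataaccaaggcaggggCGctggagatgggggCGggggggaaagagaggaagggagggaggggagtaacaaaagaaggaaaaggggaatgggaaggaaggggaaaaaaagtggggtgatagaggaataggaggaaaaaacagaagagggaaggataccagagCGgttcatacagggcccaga
Hoxa10, first window: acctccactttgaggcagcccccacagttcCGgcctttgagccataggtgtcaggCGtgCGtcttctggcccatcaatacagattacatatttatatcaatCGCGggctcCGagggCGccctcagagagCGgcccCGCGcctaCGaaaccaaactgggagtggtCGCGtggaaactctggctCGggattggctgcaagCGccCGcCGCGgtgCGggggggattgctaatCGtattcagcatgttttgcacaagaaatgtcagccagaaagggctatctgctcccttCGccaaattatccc
Hoxa10, second window: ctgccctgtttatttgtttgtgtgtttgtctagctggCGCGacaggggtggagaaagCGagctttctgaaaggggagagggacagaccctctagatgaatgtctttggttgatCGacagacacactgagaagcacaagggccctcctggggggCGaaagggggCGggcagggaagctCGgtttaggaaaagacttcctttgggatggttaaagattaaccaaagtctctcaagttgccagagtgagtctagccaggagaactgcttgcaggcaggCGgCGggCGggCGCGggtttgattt
Hoxc4: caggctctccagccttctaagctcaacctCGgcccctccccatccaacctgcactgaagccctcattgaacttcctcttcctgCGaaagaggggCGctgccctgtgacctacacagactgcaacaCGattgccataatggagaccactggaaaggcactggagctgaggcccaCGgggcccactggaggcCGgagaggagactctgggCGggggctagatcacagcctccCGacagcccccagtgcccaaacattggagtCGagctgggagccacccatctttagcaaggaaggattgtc
Hoxd10: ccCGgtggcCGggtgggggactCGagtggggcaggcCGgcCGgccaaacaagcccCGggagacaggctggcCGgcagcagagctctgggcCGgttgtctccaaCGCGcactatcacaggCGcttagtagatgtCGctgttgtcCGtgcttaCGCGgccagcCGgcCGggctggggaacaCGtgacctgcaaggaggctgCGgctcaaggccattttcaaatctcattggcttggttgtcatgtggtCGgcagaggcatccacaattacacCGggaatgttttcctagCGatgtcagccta

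CpG was more frequent in the windows of Hox genes than in most windows, with a median of 15 against 7 over all 32851 windows and a range from 4 to 45. The window of Hoxa9 held 4, those of Hoxa10 held 21 and 12, that of Hoxc4 held 9 and that of Hoxd10 held 22. Genes that were never above background included both Hoxd13 with 37 CpG and Hoxa2 with 9, so the count did not separate the detection sets among these few windows. The letters TATAAA were in 2 of the 21 windows (Hoxa10 and Hoxd13; 13.6% of all windows). AGGTCA, the core letters recognised by nuclear receptors such as those for retinoic acid, were in 6 (Hoxa5, Hoxb4, Hoxc4, Hoxd3, Hoxd8 and Hoxd10; 16.3%). TGATTTAT, letters bound by Pbx and Hox proteins together, were in 0 (0.977%). Both strands were searched, and none of these matches shows a bound site.

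Further probe sets existed for 11 of the 33 genes and did not all follow the one used. Each of the 34945 probe sets with 1 symbol was therefore also tested singly, an analysis added after the data were seen, in which 16% of sets fell and 10.1% rose in Hepatocyte against MSC. A further set of Hoxa5 read 4.80, 4.97 and 4.53 on the Hepatocyte arrays, against 6.12, 6.83 and 6.80 on the MSC arrays. It fell by 1.82 on the log2 scale (limma adjusted p = 3.3e-05), while the brighter set did not pass. A further set of Hoxb3 fell by 2.05 (limma adjusted p = 1.3e-07), and one of Hoxa3 fell by 1.38 (limma adjusted p = 0.0014) at values around background. A further set of Hoxa9 fell as well, by 1.16 (limma adjusted p = 0.0016). The further set of Hoxa10 lay between 2.91 and 3.98 on all arrays and showed nothing above background. The 2 further sets of Hoxc5 did not pass (log2 changes -0.46 and -0.87, limma adjusted p = 0.077 and 0.054). In MLC against Hepatocyte, where 16.5% of sets rose and 10.2% fell, the further sets of Hoxa5, Hoxb3, Hoxa3 and Hoxa9 rose by 1.90, 1.97, 1.5 and 1.20. The change of Hoxa10 in either comparison rests on 1 probe set, whose suffix marks one that recognises several transcripts of a gene.

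**Figure D3:**
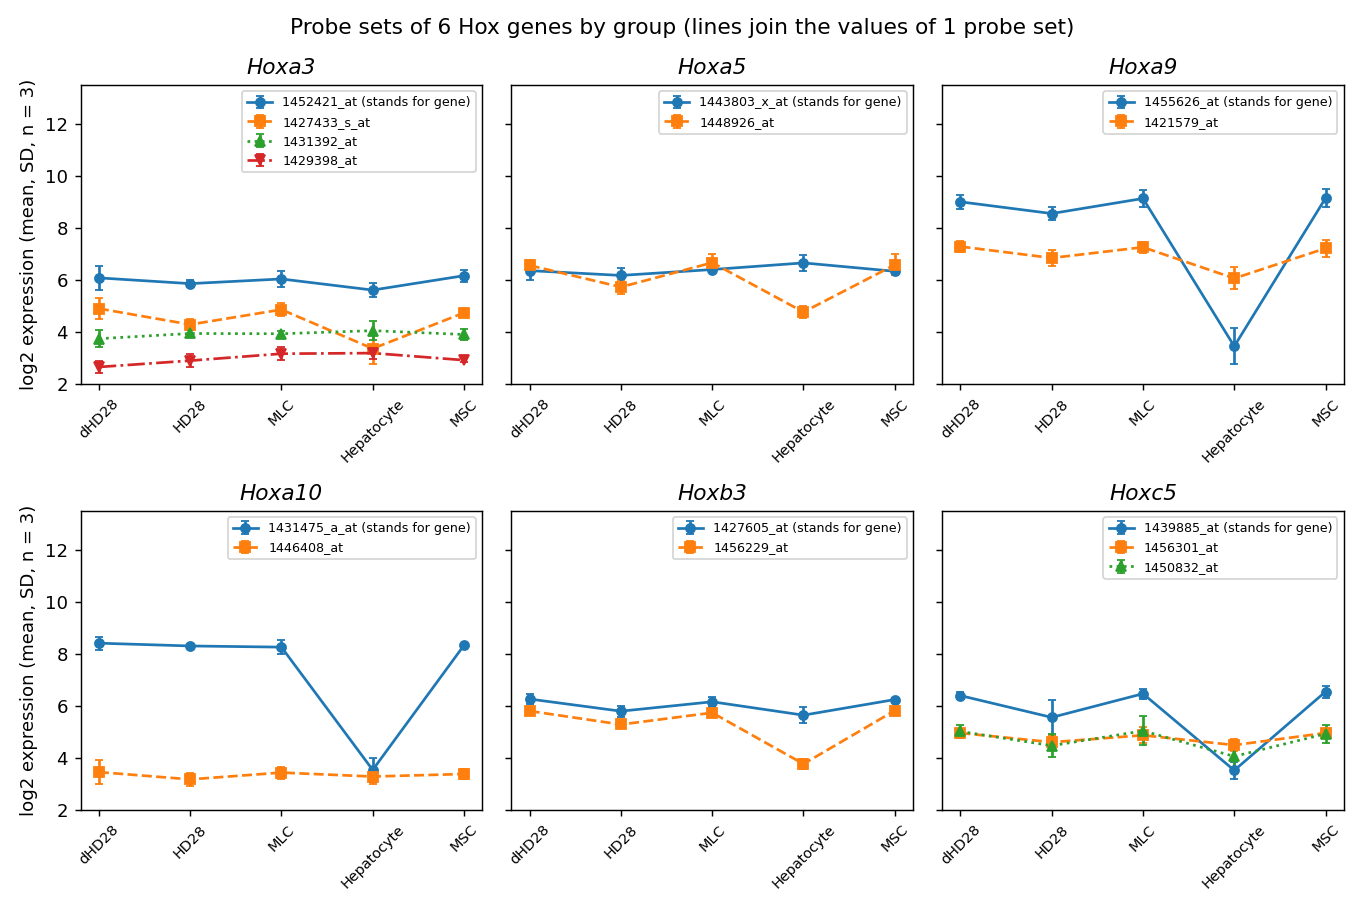
Log2 expression by group for each probe set of 6 Hox genes, as the mean and SD of 3 arrays, with lines joining the means of 1 probe set. For Hoxa5 and Hoxb3 one line drops in Hepatocyte (4.53 to 4.97 on single arrays for Hoxa5) while the other stays within the range of the other groups or close to it.

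MLC were set against the hepatocytes they were made from. In MLC, 11 Hox genes rose and 0 fell, where 18.4% of all genes rose and 12% fell. They were Hoxa4, Hoxa9, Hoxa10, Hoxb2, Hoxb6, Hoxc4, Hoxc5, Hoxc8, Hoxc9, Hoxc10 and Hoxc13. The comparison shares its Hepatocyte arrays with the one above, so low hepatocyte values enter both. The median log2 change over the 33 genes was 0.28, beside -0.06 over all genes.

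Hoxc10 read 9.71, 9.66 and 9.57 on the MLC arrays, against 4.40, 3.17 and 2.88 on the Hepatocyte arrays. It was at least 21.98-fold higher in MLC (means 9.65 ± 0.07 and 3.48 ± 0.81; fitted log2 change 6.16 ± 0.29 SE, limma adjusted p = 9.5e-09). Hoxa9 read 9.34, 8.78 and 9.29 on the MLC arrays, at least 15.4-fold higher than in Hepatocyte (means 9.13 ± 0.31 and 3.45 ± 0.70; fitted log2 change 5.68 ± 0.31 SE, limma adjusted p = 2.3e-08). All MLC arrays stood well above all Hepatocyte arrays for both genes. Hoxa10 read 8.01, 8.23 and 8.52 on the MLC arrays and was at least 8.37-fold higher (means 8.25 ± 0.25 and 3.53 ± 0.46; fitted log2 change 4.72 ± 0.21 SE, limma adjusted p = 5.9e-09). Hoxc13 read 7.42, 7.63 and 7.33 on the MLC arrays and was at least 4.82-fold higher (means 7.46 ± 0.16 and 3.98 ± 0.98; fitted log2 change 3.48 ± 0.39 SE, limma adjusted p = 8.3e-06). Neither gene had an MLC array near the Hepatocyte values.

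In the middle of the C cluster, Hoxc8 read 7.32, 6.68 and 6.39 on the MLC arrays (at least 3.05-fold higher, means 6.80 ± 0.48 and 3.19 ± 0.06, fitted log2 change 3.61 ± 0.33 SE, limma adjusted p = 1.6e-06). Hoxc5 read 6.60, 6.24 and 6.54 (at least 2.42-fold higher, means 6.46 ± 0.19 and 3.51 ± 0.34, limma adjusted p = 1.9e-06), and Hoxc4 read 6.97, 6.63 and 7.08 (at least 3.27-fold higher, means 6.90 ± 0.23 and 4.90 ± 0.18, limma adjusted p = 5e-06). None of these arrays overlapped with the Hepatocyte arrays. Hoxc9 read 7.60, 7.90 and 7.28 on the MLC arrays, 2.45-fold higher than in Hepatocyte (log2 change 1.29 ± 0.22 SE, limma adjusted p = 0.00024). Hoxb2 read 7.27, 7.23 and 6.72 on the MLC arrays, 2.75-fold higher (log2 change 1.46 ± 0.24 SE, limma adjusted p = 2e-04). The dimmer Hoxb6 and Hoxa4 were at least 1.34-fold and 1.11-fold higher (means 5.61 ± 0.38 and 3.98 ± 0.44 for Hoxb6, 5.34 ± 0.50 and 3.85 ± 0.22 for Hoxa4), with limma adjusted p of 0.00047 and 0.0018.

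For Hoxb9, a B cluster gene of axial patterning, single arrays decided the call. It read 5.25, 5.99 and 6.03 on the MLC arrays, against 5.97, 4.49 and 4.36 on the Hepatocyte arrays, with Hepatocyte array 1 at the level of MLC. Its log2 change of 0.82 ± 0.37 SE did not pass (limma adjusted p = 0.084), but without Hepatocyte array 1 it was 1.34 and without MLC array 1 it was 1.07, and both passed. Within the high and low spike-in classes the 11 genes that rose differed by 1.06 to 5.28 and by 1.10 to 6.55. Their MLC and Hepatocyte arrays did not overlap, so the direction within a class was fixed beforehand. Centring on housekeeping genes moved the median of all genes to -1.06 and gave 6 Hox genes higher and 9 lower in place of 11 and 0.

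MLC were also set against MSC. In this comparison 0 of the 33 Hox genes passed the limma test, 0 had an unadjusted p under 0.05, and 0% of all genes passed. The log2 differences, MLC minus MSC, ran from -0.25 (Hoxb1) to 0.24 (Hoxb2). Among the 11 genes that fell in Hepatocyte they ran from -0.10 to 0.24, with 95% confidence intervals between -0.79 and 0.91, both bounds belonging to Hoxc13. For Hoxc10 the interval was -0.73 to 0.54, for Hoxa9 -0.68 to 0.66, and for Hoxa10 -0.53 to 0.39. Differences inside these intervals, up to somewhat under 2-fold for each of the 11, could not be seen with 3 arrays a group. MLC arrays lay wholly below MSC arrays for 2 genes, Hoxa2 and Hoxd9, where 3.78% of all genes did, and wholly above for 0, where 1.5% did. Of these, Hoxa2 was above background on no array.

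Likeness of arrays over the 33 Hox genes was described by Pearson's r, whose points share the bright and dim probe sets. Between MLC and MSC arrays r ran from 0.973 to 0.996, and between dHD28 and MSC arrays from 0.965 to 0.994, beside 0.968 to 0.994 among MSC arrays themselves. All genes gave 0.965 to 0.997 between MLC and MSC, 0.966 to 0.996 between dHD28 and MSC and 0.965 to 0.994 among MSC arrays. Between HD28 and MSC arrays r ran from 0.95 to 0.988 over the Hox genes, where all genes gave 0.882 to 0.966. Between Hepatocyte and MSC arrays it ran from 0.274 to 0.542, and between MLC and Hepatocyte arrays from 0.304 to 0.533, where all genes gave 0.701 to 0.773 and 0.701 to 0.775.

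**Figure D4:**
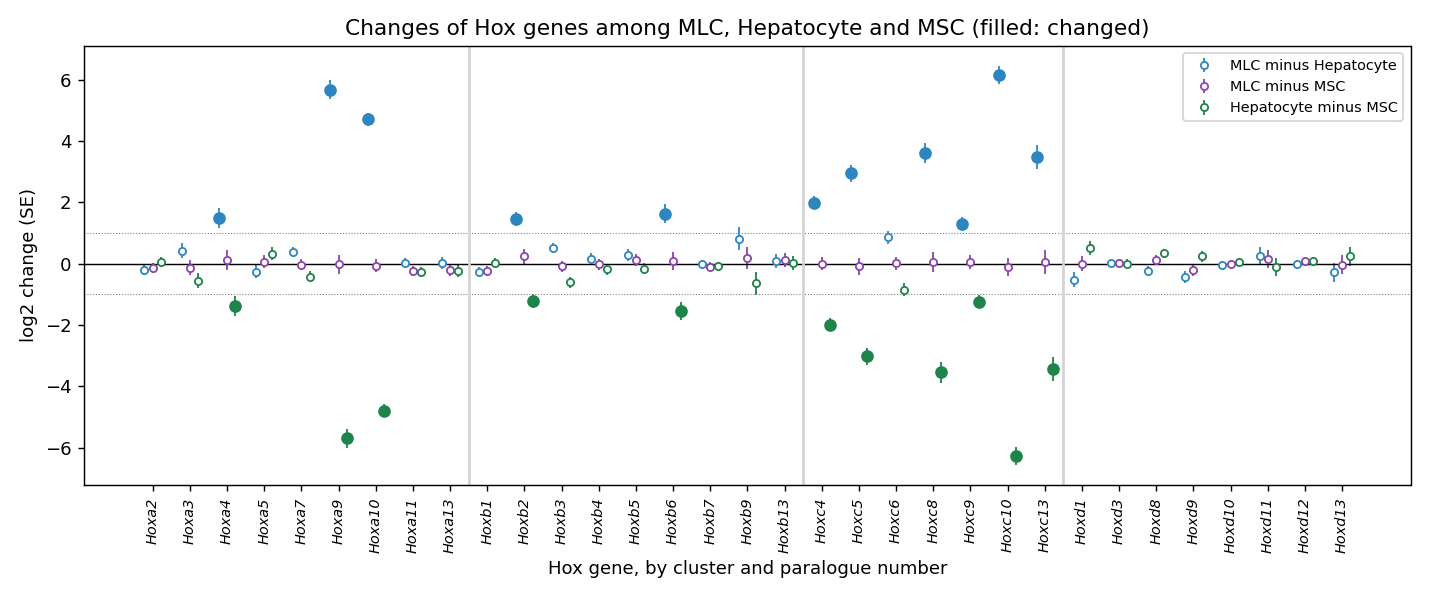
Log2 change (points, with SE bars) of each Hox gene between MLC, Hepatocyte and MSC, with filled points for genes that changed. The changes of Hepatocyte against MSC reach -6.26 (Hoxc10) and those of MLC against Hepatocyte 6.16, while those of MLC against MSC stay between -0.25 and 0.24.

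HD28 cells were set against the MSC they were made from. Here 0 of the 33 Hox genes passed in limma, where 6.77% of all genes passed (3.24% higher and 3.52% lower). An unadjusted p under 0.05 in limma was found for 11. The share of all genes at that looser limit was not counted, so the 11 cannot be set against the 6.77%. Of the 33 differences 31 were below 0, with a median log2 change of -0.28 beside -0.08 over all genes. The count below 0 was 28 with quantile normalization, 32 with median centring and 18 with housekeeping centring, which moved the median of all genes to 0.12 and that of the Hox genes to -0.09. Relative to the median of all genes, 27 of the 33 were lower under each of these scalings. Under the centrings this count could not move, since they shift all genes of an array alike. HD28 arrays lay wholly below MSC arrays for 11 Hox genes, where 19% of all genes did, and wholly above for 0, where 10.7% did.

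Closest to a call was Hoxc5, which read 6.09, 4.80 and 5.76 on the HD28 arrays, against 6.36, 6.80 and 6.45 on the MSC arrays. HD28 array 2 was lowest, and the groups did not overlap (log2 change -0.99 ± 0.28 SE, limma adjusted p = 0.039, 1.98-fold). Hoxc8 read 6.29, 5.28 and 5.56 on the HD28 arrays, against 6.25, 7.42 and 6.54 on the MSC arrays, and here HD28 array 1 lay within the MSC range (log2 change -1.03 ± 0.33 SE, limma adjusted p = 0.072). Without HD28 array 1 both genes passed, at -1.26 and -1.32. Hoxc10 read 8.68, 8.92 and 9.09 on the HD28 arrays, against 9.79, 9.85 and 9.58 on the MSC arrays, with no overlap (log2 change -0.85 ± 0.29 SE, limma adjusted p = 0.091). Hoxa10 read 8.37, 8.23 and 8.29 on the HD28 arrays, against 8.35, 8.31 and 8.32 on the MSC arrays, a log2 difference of -0.03 with a 95% interval of -0.48 to 0.43. The interval of Hoxa9 was wider, at -1.26 to 0.08.

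On HD28 array 3, the array with hepatocyte markers, 10 of the 33 Hox genes read below both other HD28 arrays, 17 between them and 6 above both. Hoxc10 read 9.09 on it, Hoxa9 8.58, Hoxa10 8.29 and Hoxc13 6.83, each within or above the range of the other 2 HD28 arrays. Among the genes below both were Hoxb2 (5.95), Hoxc9 (6.85), Hoxa4 (4.52), Hoxa7 (5.95), Hoxb3 (5.58) and Hoxb4 (5.83). Without this array 29 of the 33 differences from MSC were below 0, with a median of -0.26 beside -0.09 over all genes. Relative to that median of all genes 21 of the 33 were lower. That count was 27 with all arrays and 27 without HD28 array 1 or 2.

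dHD28 cells were set against HD28. In dHD28, 2 Hox genes rose, Hoxb6 and Hoxb9, and 0 fell, where 4.63% of all genes rose and 4.19% fell (8.82% in all). Both belong to the B cluster and act in axial patterning. Hoxb6 read 6.25, 6.11 and 5.85 on the dHD28 arrays, against 5.07, 4.37 and 4.46 on the HD28 arrays. All dHD28 arrays were above all HD28 arrays, of which 1 was above background (2.71-fold, log2 change 1.44 ± 0.30 SE, limma adjusted p = 0.0062). Hoxb9 read 6.21, 6.12 and 5.84 on the dHD28 arrays, against 4.91, 4.54 and 4.85 on the HD28 arrays, again without overlap (2.44-fold, log2 change 1.29 ± 0.37 SE, limma adjusted p = 0.033). The call of Hoxb9 was lost when HD28 array 1, 2 or 3 or dHD28 array 1 or 2 was left out, with log2 changes between 1.17 and 1.36, and that of Hoxb6 held in each such fit. Hoxb6 rests on 1 probe set, whose suffix marks one that recognises several transcripts of a gene, and has no value when such sets are left out.

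Hoxb2 lay just outside. It read 7.01, 7.14 and 6.71 on the dHD28 arrays, against 6.15, 6.27 and 5.95 on the HD28 arrays (1.78-fold, log2 change 0.83 ± 0.24 SE, limma adjusted p = 0.034). Hoxc5 had a log2 change of 0.84 ± 0.28 SE (limma adjusted p = 0.066), and passed at 1.11 when HD28 array 1 was left out. Hoxc10 read 9.62, 9.86 and 9.54 on the dHD28 arrays, against 8.68, 8.92 and 9.09 on the HD28 arrays, with no overlap and a log2 change of 0.78 ± 0.29 SE (limma adjusted p = 0.10). The median log2 change over the 33 genes was 0.23, beside 0.05 over all genes, and 5 of the 33 were below 0. With housekeeping centring, which moved the median of all genes to -0.20, 17 were below 0. Below the median of all genes lay 7 under either scaling, a count that such centring cannot move. dHD28 arrays lay wholly above HD28 arrays for 8 Hox genes, where 17% of all genes did, and wholly below for 0, where 12.3% did. This comparison shares the HD28 arrays with the one above. Within the spike-in classes, Hoxb6 differed by 1.74 between single arrays of the high class and by 1.29 between 2 and 2 arrays of the low class. For Hoxb9 the differences were 1.58 and 1.14. Since neither gene had overlapping arrays, the direction within a class was fixed beforehand.

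Between dHD28 and MSC, 0 of the 33 Hox genes passed in limma, 0 had an unadjusted p under 0.05, and 0% of all genes passed. The log2 differences, dHD28 minus MSC, ran from -0.52 (Hoxc8) to 0.56 (Hoxb6), with 95% intervals between -1.24 (Hoxc8) and 1.27 (Hoxb9). A 2-fold difference in Hoxc8, Hoxb6 or Hoxb9 was therefore within what the arrays allow, while the intervals of the other genes did not reach 2-fold. dHD28 arrays lay wholly below MSC arrays for Hoxb7 and Hoxc6, 2 of the 33, where 3.5% of all genes did, and wholly above for 0, where 1.44% did. Of these, Hoxb7 was above background on no array. For Hoxc10 the interval was -0.70 to 0.57 and for Hoxa9 -0.81 to 0.53.

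**Figure D5:**
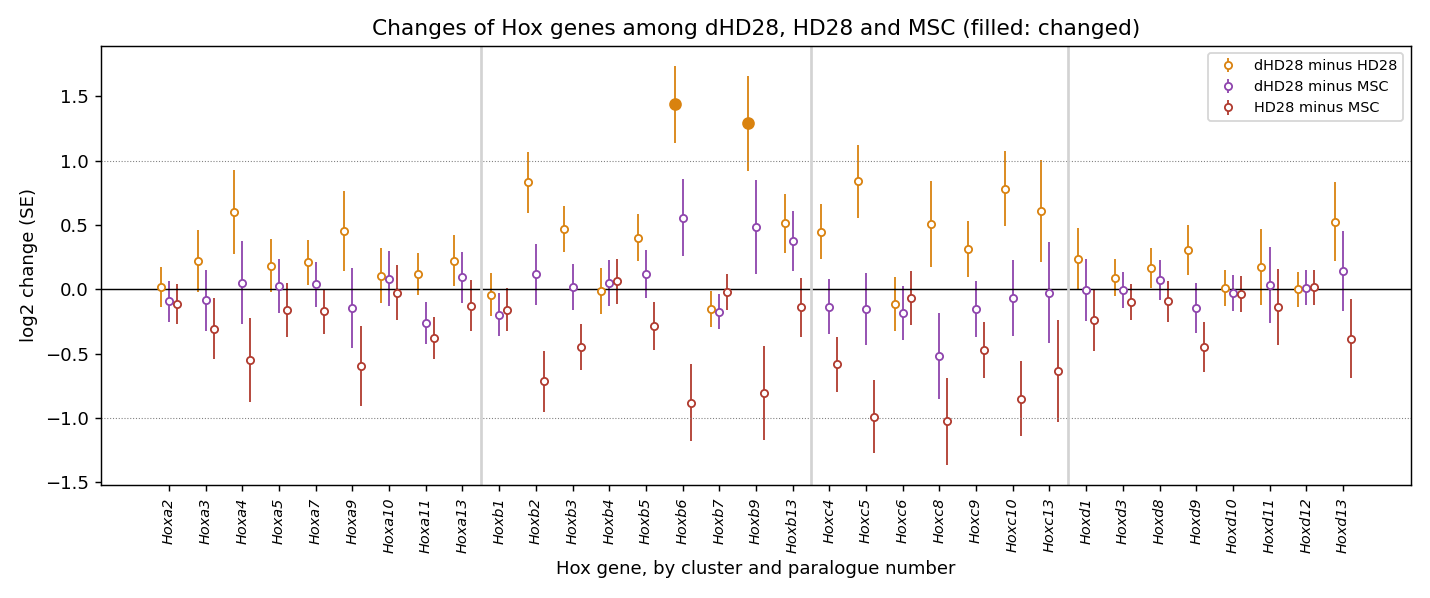
Log2 change (points, with SE bars) of each Hox gene among dHD28, HD28 and MSC, with filled points for genes that changed and dotted lines at a 2-fold change. Hoxb6 (1.44) and Hoxb9 (1.29) in dHD28 against HD28 are the filled points, and the points of HD28 against MSC lie mostly below 0.

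Genes that work with or on the Hox clusters were read from lists chosen by function. Of 9 Hox cofactors measured, 5 fell and 0 rose in Hepatocyte against MSC, where 18.3% of all genes fell and 11.8% rose, with a median log2 change of -1.62 beside 0.04 over all genes. Pbx3, which binds DNA beside Hox proteins, was not above background in Hepatocyte and at least 6.25-fold lower (means 4.45 in Hepatocyte and 7.83 in MSC, fitted log2 change -3.38 ± 0.31 SE, limma adjusted p = 1.3e-06). Meis1, of another cofactor family, was not above background in Hepatocyte either and at least 2.01-fold lower (means 4.26 and 6.20). Pbxip1, an interactor of Pbx proteins, fell by 2.10 on the log2 scale, and Pknox2, above background on 2 of the 3 Hepatocyte arrays, fell by 1.66. In MLC against Hepatocyte 5 rose and 0 fell, where 18.4% of all genes rose and 12% fell, and 0 passed in MLC, HD28 or dHD28 against MSC, where 0, 3 and 0 had an unadjusted p under 0.05 in limma. In dHD28 against HD28, Pbxip1 fell by 1.19 (limma adjusted p = 0.023), a call lost without HD28 array 1 or 2 or dHD28 array 1 or 2. With the mean of all probe sets of a gene the 5 became 3 in both Hepatocyte comparisons, and without probe sets that may match several transcripts 2. With housekeeping centring 2 fell in Hepatocyte against MSC, and 2 rose and 1 fell in MLC against Hepatocyte.

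Of 25 Polycomb and Trithorax genes, 9 fell and 0 rose in Hepatocyte against MSC (18.3% and 11.8% of all genes; median log2 change -0.68), and 10 rose and 0 fell in MLC against Hepatocyte (18.4% and 12% of all genes). Changed in either direction were 9 of the 25 in the first comparison, not far from the 30.1% of all genes. Phc1, a subunit of Polycomb repressive complex 1, averaged 5.53 in Hepatocyte and 8.48 in MSC (log2 change -2.95 ± 0.12 SE, limma adjusted p = 3.1e-09). Ezh2, the methyltransferase of Polycomb repressive complex 2, fell by 2.89, and Pcgf2 and Phc2 fell by 2.10 and 1.87. Centred on housekeeping genes, 3 of the 25 fell and 2 rose in the first comparison, and 2 rose and 4 fell in the second. In HD28 against MSC, Ezh1, a relative of Ezh2, rose (1.15, limma adjusted p = 0.016) and Gmnn, an inhibitor of DNA replication licensing that also binds Polycomb and Hox proteins, fell (-1.78, limma adjusted p = 0.00012), 2 of the 25 where 6.77% of all genes changed. The call of Ezh1 was lost without MSC array 1 or HD28 array 3. In dHD28 against HD28, Gmnn, Phc2 and Ezh2 rose (1.85, 1.67 and 1.16) and Ezh1 fell (-1.40), where 8.82% of all genes changed. That count of 4 became 2 without dHD28 array 1 and 7 without dHD28 array 3.

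Of 32 other homeobox and T-box genes that mark body position, 10 fell and 2 rose in Hepatocyte against MSC (18.3% and 11.8% of all genes; median log2 change -0.04). The 12 changed genes are a share not far from the 30.1% of all genes. Shox2, a limb gene, was not above background in Hepatocyte and at least 28.6-fold lower (means 3.25 in Hepatocyte and 10.03 in MSC, fitted log2 change -6.78 ± 0.27 SE, limma adjusted p = 2.6e-09). Prrx2 and Tbx18, genes of limb and other mesenchyme, were likewise at least 43.4-fold and 24.1-fold lower. Prrx1, a relative of Prrx2 that was above background on 1 Hepatocyte array, fell by 6.69 on the log2 scale, and Hhex, a gene of liver formation that was above it on 1 MSC array, rose by 5.95. In MLC against Hepatocyte 10 rose and 2 fell, where 18.4% of all genes rose and 12% fell. In HD28 against MSC, where 3.52% of all genes fell, Msx2 and Prrx2 fell (-2.02 and -1.01) and Lhx9, not above background in HD28, was at least 1.85-fold lower, 3 genes that became 5 without MSC array 1. In dHD28 against HD28, where 4.63% of all genes rose, Msx2 and Emx2 rose (2.42 and 1.38) and Lhx9 was at least 2.08-fold higher. Centred on housekeeping genes, the split in Hepatocyte against MSC was 9 lower and 15 higher, and in MLC against Hepatocyte 9 higher and 19 lower.

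Of 16 genes of retinoid signalling, 6 rose and 3 fell in Hepatocyte against MSC (11.8% and 18.3% of all genes; median log2 change 0.42). Aldh1a1, which makes retinoic acid from retinal, was not above background in MSC and at least 335-fold higher in Hepatocyte (means 13.32 in Hepatocyte and 3.19 in MSC, limma adjusted p = 3e-09). Cyp26a1, which breaks retinoic acid down, was at least 15.5-fold higher in Hepatocyte by the same measure. The retinoic acid binding proteins Crabp2 and Crabp1 were not above background in Hepatocyte and at least 17.4-fold and 6.52-fold lower. In HD28 against MSC, where 6.77% of all genes changed, Aldh1a1 was at least 95.1-fold higher (limma adjusted p = 1.1e-07), Crabp1, not above background in HD28, was at least 8.79-fold lower, and Crabp2 fell by 1.44 on the log2 scale. In dHD28 against HD28, where 8.82% of all genes changed, Aldh1a1, above background on 1 dHD28 array, fell by 7.43 on the log2 scale and Crabp1 was at least 9.47-fold higher. Without probe sets that may match several transcripts, the 9 changed genes became 5 in both Hepatocyte comparisons and the 2 in dHD28 against HD28 became 1. In MLC against Hepatocyte 3 genes rose and 6 fell, where 18.4% of all genes rose and 12% fell, and 0 passed in MLC or dHD28 against MSC, where 0 had an unadjusted p under 0.05 in limma.

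Of the transcripts without protein product in the clusters, 3 were measured (Hoxa11os, Hoxb5os and Hoxd3os1), and 0 passed in any comparison, with 1 of the 3 at an unadjusted p under 0.05 in limma in each of 4 comparisons. Hoxb5os, from the strand opposite Hoxb5, averaged 5.85 in Hepatocyte and 5.09 in MSC (log2 change 0.77 ± 0.20 SE, limma adjusted p = 0.006, 1.70-fold), a gain that met the fold limit when arrays were centred on housekeeping genes. Hoxa11os averaged 2.74 in Hepatocyte and 2.97 in MSC (log2 change -0.24 ± 0.19 SE, limma adjusted p = 0.35). In dHD28 Hoxb5os averaged 4.81, against 5.57 in HD28 (log2 change -0.76 ± 0.20 SE, limma adjusted p = 0.022).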

How the data were processed

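Total RNA of 15 mouse samples (3 in each of 5 groups) was hybridised to Affymetrix Mouse Genome arrays. The deposited table holds log2 expression values of 45101 probe sets, made by the authors with RMA, per the submitters' processing notes, which give no version. RMA corrects background, equalises the arrays' distributions and summarises the probes of a set, so levels compare one probe set across arrays but not different probe sets. The log base is not given in the sources used here and base 2 was inferred from the size of the values (lowest 1.32). Array medians lay between 4.84 and 4.95. Precision is set by the number of arrays, since they carry no read depth.

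Of the probe sets, 64 were controls, 34945 had 1 gene symbol, 932 several and 9160 none. IDs of 34741 matched RefSeq (GRCm38.p6). The brightest probe set stood for each of 18193 genes. For the Hox family, 48 probe sets had 1 symbol, and 3 shared by several genes were not tested.

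Using limma 3.58.1 (R 4.3.3), 1 mean per group was estimated from the 15 arrays by lmFit and eBayes, leaving 10 residual degrees of freedom. Tests were two-sided and adjusted by Benjamini-Hochberg over all genes. To count as changed, a gene needed a 2-fold difference or more with an adjusted p under 0.05. Comparisons numbered 6, beside a moderated F test without a fold limit. Counts at an unadjusted p under 0.05 are given without the share of all genes at that limit, which was not counted. Errors of changes are SE, those of means SD. Counts of genes whose arrays did not overlap include genes that were above background on no array, such as Hoxa11 and Hoxb13. A gene was above background in a group when all 3 arrays were. A bound ("at least N-fold") sets the brighter group's mean against the mean of the background level or the dim probe set's own value, whichever was higher on each array. The fit was tested on simulated data.

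The Hox members and the other gene lists were chosen with earlier results of these data known. Values on each array are given for the 10 members with the largest F, for members that changed among dHD28, HD28 and MSC, and for those near a call. Of other lists, at most 4 changed members with the largest change are named, or the 2 largest where none changed. Hoxd9, Hoxa5, Hoxd10 and the further probe sets were singled out after their values were seen. Alternatives were another choice of probe sets, quantile normalization, 2 centrings, a detection filter, other variance settings, only the compared arrays, no fold limit, blocks and each array left out, and 1 added after the data were seen (each probe set singly). The labels do not say that replicate numbers mark shared animals or days. Deviations of same-numbered arrays correlated in each pair between dHD28 and HD28 (0.321, 0.275 and 0.125). Same-numbered arrays of these groups also share their spike-in class (low, high and low), so pairing and class cannot be told apart there. The main fit had no block, and the replicate block was an alternative only. In each other comparison at least 1 pair was under 0.1. Larger correlations of both signs were found between MLC and MSC (-0.21, -0.678 and 0.773) and between dHD28 and MSC (-0.286, -0.64 and 0.689).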

Additional observations from a re-analysis of the deposited data

How the results depend on the processing

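Precision was limited by 3 arrays a group and, for dim probe sets, by signal near background. Over 15 fits that left out 1 array each, the count of changed Hox genes ran from 10 to 12 in Hepatocyte against MSC, from 11 to 12 in MLC against Hepatocyte, from 0 to 2 in HD28 against MSC, from 1 to 2 in dHD28 against HD28, stayed at 0 in MLC and in dHD28 against MSC, and the F test passed 11 to 15. The replicate block gave 11, 11, 0, 2, 0 and 0 in the same order and changed no call among the Hox results, and the spike-in block left these counts unchanged. In dHD28 against HD28 the count of 2 became 1 without probe sets that may match several transcripts, with quantile normalization once more and with housekeeping centring. In HD28 against MSC the count of 0 became 1 (Hoxc5) with quantile normalization, with median centring and with no fold limit. Under housekeeping centring the F test passed 25 in place of 14, and the signs of 11 of the 33 Hox genes turned in Hepatocyte against MSC, of 13 in MLC against Hepatocyte, of 13 in HD28 against MSC and of 12 in dHD28 against HD28, while the median of all genes moved to 0.98, -1.06, 0.12 and -0.20. Among genes with an unadjusted p under 0.05 these were Hoxa3 0.39, Hoxa7 0.53, Hoxb3 0.35 and Hoxc6 0.097 in Hepatocyte against MSC, and Hoxa7 -0.61, Hoxb3 -0.48, Hoxb9 -0.18 and Hoxc6 -0.14 in MLC against Hepatocyte. Median centring moved the median of all genes to 0.19 in Hepatocyte against MSC and -0.18 in MLC against Hepatocyte. Hoxa10 was lost in both Hepatocyte comparisons (-0.10 and 0.15) without probe sets that may match several transcripts, which leaves its dim set. Hoxb6 has no other set and was not measured there, so its calls in both Hepatocyte comparisons and in dHD28 against HD28 were lost. Hoxa4 missed the fold limit (-0.82 and 0.90) with the mean of all its probe sets, and Hoxc9 missed it (-0.96) in Hepatocyte against MSC with quantile normalization. Elsewhere the cause of a change was not tested.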

Other observations

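Hox probe sets shared by neighbouring genes stood outside the tests. The set shared by Hoxb8 and Hoxb7 read 4.75, 4.84 and 5.38 on the dHD28 arrays, 4.45, 4.08 and 4.25 on the HD28 arrays, 4.91, 5.50 and 5.39 on the MLC arrays, 4.11, 4.13 and 4.24 on the Hepatocyte arrays, and 4.92, 4.75 and 4.77 on the MSC arrays. All dHD28, MLC and MSC arrays lay above all HD28 and Hepatocyte arrays. However, no MSC, HD28 or Hepatocyte array was above background in this set, nor was dHD28 array 2. The order of those values is therefore one within background and was not tested. Of the sets shared by Hoxd4 and Hoxd3, one read between 4.598 and 5.58 and the other between 3.54 and 4.18 over the 15 arrays. HD28 arrays lay wholly below MSC arrays in the first and wholly below Hepatocyte arrays in the second, and all other pairs of groups overlapped in both. The second set was above background on no array.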
